A study of Mus musculus with 12 samples.

Results

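The sterol and fatty acid synthesis genes are 36 genes listed by name for their roles in lipid synthesis: 17 enzymes of cholesterol synthesis, 5 regulators of the pathway and 14 enzymes of fatty acid synthesis, elongation and desaturation. They were found by gene name among 17885 genes in the table of control and Eed iKO libraries and among 21915 genes in the hair cycle table, and both tables held all 36. The study asked whether Polycomb repressive complex 2 (PRC2), which places the repressive mark H3K27me3 on histones, is needed in adult hair follicle stem cells (HFSCs), and whether its loss resembles the activation that HFSCs undergo in a normal hair cycle. RNA-seq was made from HFSCs of mouse back skin gated for EpCAM+ and CD34+ cells high in α6-integrin and Sca1-, with 3 libraries in each of 4 groups, all on the C57BL/6J strain. The hair cycle groups were wild type mice at P28-30, in anagen (hair growth, with activated HFSCs), and at P50-52, in telogen (rest, with quiescent HFSCs).

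The other groups were both at P70. The Eed iKO mice carried K15-CrePGR and Eed fl/fl and are labelled Eed -/-. They received 100 µl of RU-486 at 10 mg/ml in ethanol on shaved back skin daily for 7 days from P50. RU-486 activates the Cre recombinase, which the K15 promoter drives in the bulge, the niche of HFSCs, and in the hair germ. The controls are labelled wild type and, per the methods, received ethanol alone, so the effect of RU-486 cannot be told apart from that of the Eed deletion. In the hair cycle groups, stage cannot be told apart from age. The study describes biological replicates from at least 2 litters in the Eed experiment. The labels do not tie a library to an animal, so p-values measure the spread between libraries.

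Cholesterol is built from acetyl-CoA through mevalonate, isoprenoids, squalene and a series of sterols, and fatty acids are built from acetyl-CoA through malonyl-CoA and then lengthened and desaturated. When sterols run low, SCAP carries the SREBP proteins, encoded by Srebf1 and Srebf2, out of the endoplasmic reticulum, and the cleaved SREBPs switch on the enzyme genes, while INSIG proteins hold SCAP back. Growing and dividing cells need these lipids for membranes, and skin also uses long fatty acids and sterols for its barrier and its sebum.

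The region just before a gene's start shows a feature that many of these genes share. RefSeq start windows of the build GRCm38.p6, from 250 bases before to 50 bases after the start, were available for 29 of the 36 genes. Windows were not used here for Fdps, Fdft1, Sqle, Scd1, Scd2, Elovl3 and Fads1. The letters CCAAT, a short element known to bind the factor NF-Y, were found on either strand for 24 of 29 genes (82.8%), against 41.1% of all 27025 genes with a window. All 14 sterol enzymes with a window held it, as did 4 of 5 regulators and 6 of 10 fatty acid enzymes, while Scap, Acaca, Elovl6, Elovl7 and Fads2 did not. GGGCGG, the core of the Sp1 site, was in 23 of 29 (79.3%, against 38.2% of all genes), and CACGTG, the E-box, in 7 of 29 (24.1%, against 8.09%). TCACNCCAC, a form of the sterol regulatory element to which SREBPs bind, was in Hmgcs1 only (1.44% of all genes held it). The 27025 genes had 32851 windows, and a gene counted where any of its windows held the motif. Those genes were not limited to the ones tested in these libraries, so the shares do not compare the set with other expressed genes. Matches of different motifs can share end bases, but none of the 4 lies within another, and a match is a description of letters and not a binding site. The 250 bases before the start of 3 enzymes that were higher in anagen are shown, 5′ to 3′ on the gene's strand, for Hmgcs1 at chr13:119690101-119690350 on the plus strand, Sc5d at chr9:42264301-42264550 on the minus strand and Fasn at chr11:120824548-120824797 on the minus strand. Capitals mark TCACNCCAC and CCAAT, the latter read as ATTGG where it lies on the opposite strand.
Hmgcs1: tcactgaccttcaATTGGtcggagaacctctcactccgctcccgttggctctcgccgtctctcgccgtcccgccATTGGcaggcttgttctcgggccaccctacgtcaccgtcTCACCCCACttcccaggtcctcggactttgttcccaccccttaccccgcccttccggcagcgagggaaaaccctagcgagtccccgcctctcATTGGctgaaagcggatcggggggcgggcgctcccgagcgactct
Sc5d: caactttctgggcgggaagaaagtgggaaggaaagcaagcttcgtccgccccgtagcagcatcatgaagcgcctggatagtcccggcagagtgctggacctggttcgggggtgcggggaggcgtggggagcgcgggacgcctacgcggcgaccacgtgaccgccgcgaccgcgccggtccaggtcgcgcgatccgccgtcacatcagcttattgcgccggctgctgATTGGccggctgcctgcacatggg
Fasn: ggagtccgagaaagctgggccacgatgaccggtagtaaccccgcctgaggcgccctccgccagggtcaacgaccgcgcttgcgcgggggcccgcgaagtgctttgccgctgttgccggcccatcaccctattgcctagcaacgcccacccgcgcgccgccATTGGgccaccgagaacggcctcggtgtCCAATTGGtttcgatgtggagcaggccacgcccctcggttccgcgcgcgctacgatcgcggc
Hmgcs1 held 3 copies of CCAAT and 1 of TCACNCCAC, Sc5d 1 copy of CCAAT, and Fasn 3 copies, of which a pair overlapped head to head.

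The libraries of the Eed table held 33269583 to 57063586 reads, recovered from the size-factor steps of the deposited values. Depth is unknown in the hair cycle table, whose values summed to 11370984 to 13186648 normalized counts a library. Values are normalized counts, and levels in the 2 tables cannot be compared because each was scaled on its own. Eed itself was at 1084, 1249 and 950.2 in controls and at 933.3, 1361 and 1001 in the libraries labelled Eed iKO, which thus did not go with a lower level, and a whole-gene value cannot reveal a deleted part. By other assays, the paper reports lower Eed mRNA by RT-qPCR in sorted Eed iKO HFSCs and a significant loss of H3K27me3 by immunofluorescence at P70. Ezh2 and Suz12, the other core subunits of PRC2, had log2 fold changes of -0.09 and 0.10 in the Eed iKO libraries (limma adjusted p = 0.871 and 0.826). The 10 HFSC markers were present in all libraries at 2.06% to 5.03% of all normalized counts. Telogen replicate 1 had the lowest sum, 236501 normalized counts, against 531510 to 663758 in the other 5 hair cycle libraries. Replicate 3 of both P70 groups stood apart: the suprabasal epidermis markers summed to 62138 and 87206 there, against 22754 to 33012 in the other 4 libraries.

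The first question was whether lipid synthesis genes differ between activated and quiescent HFSCs. In anagen HFSCs, 8 of the 34 testable genes were higher than in telogen and none was lower, by limma with Benjamini-Hochberg adjustment over 13457 genes at adjusted p under 0.05. At an unadjusted p under 0.05, 13 were higher (38.2%, against 15.1% of all genes) and 1, Tm7sf2, was lower (2.94%, against 12.2%). The called genes were 5 sterol enzymes (Hmgcs1, Idi1, Fdft1, Cyp51 and Sc5d) and 3 fatty acid enzymes (Scd2, Fasn and Fads1). Of all genes tested, 11.6% were called, 7.22% higher and 4.35% lower in anagen. A log2 fold change above 0 was found for 26 of the 34 (76.5%, against 50.6% of all genes). The median log2 fold change was 0.67 over the sterol enzymes, 0.54 over the regulators and 0.25 over the 12 testable fatty acid enzymes, beside 0.01 over all genes tested. In sorted bulk cells, fewer cells of a type and less RNA per cell cannot be told apart.

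**Figure D1:**
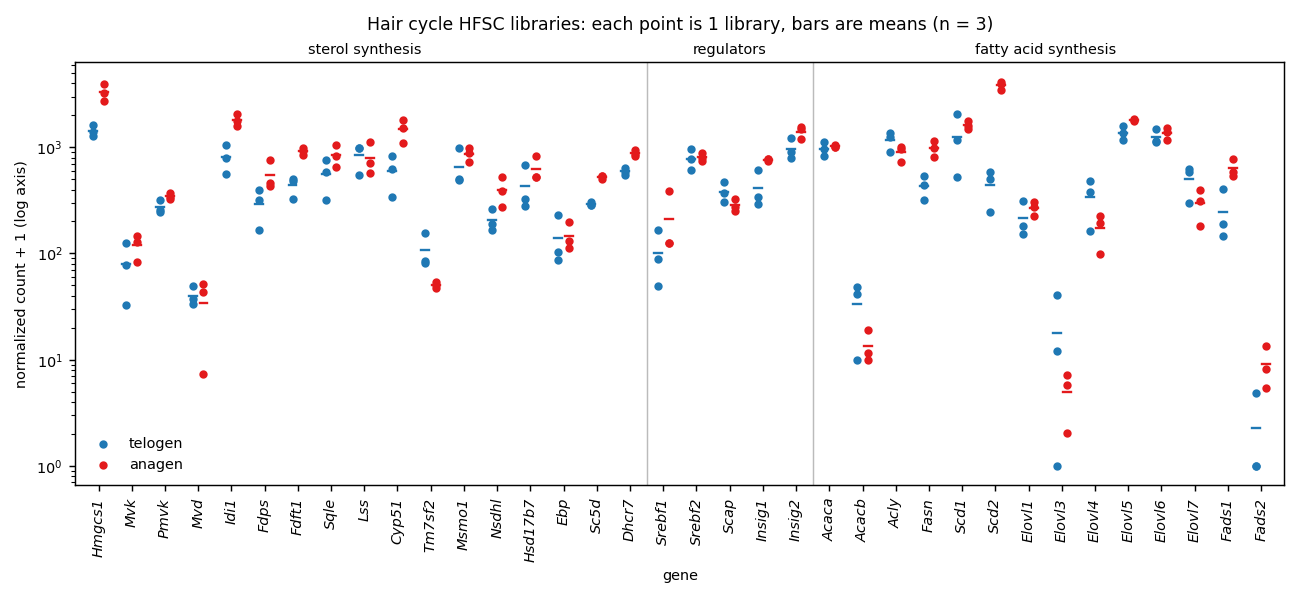
Normalized count + 1 on a log axis for each of the 36 genes in the hair cycle libraries, with 1 point per library and a bar at the mean of 3 libraries, telogen in blue and anagen in red. Scd2 shows the widest gap, from at most 582 in telogen to at least 3472 in anagen, and Elovl3 and Fads2 lie near 0.

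Early in the sterol route, Hmgcs1, Idi1 and Fdft1 were called higher. Hmgcs1, the synthase that makes HMG-CoA for the mevalonate route, stood at 1622, 1393 and 1282 normalized counts in telogen and at 3894, 3263 and 2702 in anagen. Every anagen library exceeded every telogen library, and the log2 fold change was 1.19 (SE 0.20, limma adjusted p = 0.0040). Idi1, which isomerizes the basic isoprenoid unit, was at 1059, 785 and 557 in telogen and 2035, 1778 and 1574 in anagen, again without overlap. Its log2 fold change was 1.21 (SE 0.25, limma adjusted p = 0.012). Fdps joins isoprenoid units into farnesyl diphosphate and was at 165, 393 and 316 in telogen and 754, 431 and 462 in anagen. Its groups did not overlap, but its log2 fold change of 0.96 missed the threshold (SE 0.36, limma adjusted p = 0.114).

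Fdft1 is the squalene synthase that commits farnesyl diphosphate to sterols. It was at 323, 483 and 501 in telogen and 977, 913 and 847.5 in anagen, with every anagen library above every telogen library. The log2 fold change was 1.09 (SE 0.24, limma adjusted p = 0.016). Its transcripts share 31.9% of their 31-base words with other genes, mostly the neighbouring Ctsb, so its count is uncertain. Ctsb itself changed by 0.43 on the log2 scale (SE 0.20, limma adjusted p = 0.196). Hmgcs1, Idi1 and Fdps share 13.1%, 27.1% and 27.9% of their words with other gene models, mostly Gm48342, Gm13502 and Gm43738. For Acaca the share is 33.5%, mostly with Gm5182, and for Tm7sf2 13.3%, mostly with Vps51.

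The later sterol enzymes were less uniform. Cyp51, which removes a methyl group from lanosterol, was at 822, 629.5 and 339 in telogen and 1821, 1528 and 1093 in anagen. The groups did not overlap, and within each group replicate 3 was lowest (log2 fold change 1.37, SE 0.32, limma adjusted p = 0.021). Sc5d, the lathosterol desaturase, was nearly level within groups, at 287, 285 and 302.5 in telogen and 539.8, 532 and 499.7 in anagen. All anagen libraries were higher, with a log2 fold change of 0.84 (SE 0.24, limma adjusted p = 0.042). Nsdhl, a sterol dehydrogenase, was at 165.5, 187 and 259.8 in telogen and 528, 387 and 272 in anagen. Its anagen replicate 3 lay just above telogen replicate 3, and its log2 fold change of 0.93 missed the threshold (SE 0.33, limma adjusted p = 0.095).

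Tm7sf2, a sterol reductase, had the opposite direction. It was at 83.1, 80.3 and 155.7 in telogen and 52.5, 49.8 and 46.3 in anagen. Every anagen library was lower, yet the change, a log2 fold change of -1.02, did not pass (SE 0.44, limma adjusted p = 0.161). Of the 17 sterol enzymes, 9 were higher in anagen without overlap (52.9%, against 18.1% of all genes tested) and 1, Tm7sf2, was lower without overlap (15.2% of all genes tested). The remaining 2 of those 9 were Pmvk and Dhcr7, with log2 fold changes of 0.35 and 0.57 that missed the adjusted threshold. Mvk, Mvd, Sqle, Lss, Msmo1, Hsd17b7 and Ebp overlapped between groups, with log2 fold changes from -0.64 for Mvd to 0.76 for Mvk.

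None of the 5 regulators passed the adjusted threshold by limma, while Insig1 and Insig2 had an unadjusted p under 0.05. Insig1, which retains SCAP and is itself switched on by SREBPs, was at 609.8, 294 and 339 in telogen and 766, 743 and 769 in anagen. All anagen libraries were higher, and telogen replicate 1 lay well above the other telogen libraries (log2 fold change 0.95, SE 0.29, limma adjusted p = 0.057). Without telogen replicate 1 the log2 fold change was 1.26 and the adjusted p 0.0056. Insig2, its relative, was at 789, 899 and 1224 in telogen and 1469.9, 1537 and 1184 in anagen, so 1 anagen library fell below the highest telogen library. Its log2 fold change was 0.54 (SE 0.23, limma adjusted p = 0.152).

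Neither transcription factor passed the test. Srebf2, which chiefly drives sterol genes, was at 607, 957 and 779 in telogen and 743, 885 and 794 in anagen. The groups overlapped fully, and the 95% interval of the log2 fold change ran from -0.44 to 0.58. Srebf1, which chiefly drives fatty acid genes, was at 167, 48.4 and 87.3 in telogen and 125, 383 and 125 in anagen. Only anagen replicate 2 stood above all telogen libraries (log2 fold change 1.02, SE 0.55, limma adjusted p = 0.260). Scap was at 307, 467 and 366 in telogen and 272, 325 and 249 in anagen, with a log2 fold change of -0.42 (SE 0.28, limma adjusted p = 0.360). These are mRNA levels, and the cleavage that activates SREBPs was not measured.

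Scd2 showed the largest change of the 34 genes tested. It encodes a stearoyl-CoA desaturase, which puts the first double bond into saturated fatty acids. Scd2 was at 244, 499 and 582 in telogen and 4143, 3954 and 3472 in anagen. All 3 anagen libraries lay far above telogen (log2 fold change 3.21, SE 0.30, a 9.27-fold difference, limma adjusted p = 9.8e-05), and no other gene of the set passed the thresholds of the methods, a log2 fold change over 2 and p under 0.05, which 3.33% of all genes passed upwards and 1.77% downwards. Its relative Scd1 was at 1158, 2058 and 523 in telogen and 1762, 1478 and 1582 in anagen, with overlap and a log2 fold change of 0.57 (SE 0.39, limma adjusted p = 0.373). Per kb of transcript, the ratio of Scd2 to Scd1 was 0.187, 0.215 and 0.987 in telogen and 2.08, 2.37 and 1.94 in anagen. Scd1 was thus the more abundant in 3 of 3 telogen libraries, narrowly in replicate 3, and Scd2 in 3 of 3 anagen libraries. The transcripts share little sequence, 4.63% of the 31-base words of Scd2 occurring in Scd1.

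Fasn, the fatty acid synthase, was at 316, 437 and 535 in telogen and 1140.2, 978 and 807 in anagen. The groups did not overlap, and the log2 fold change was 1.20 (SE 0.26, limma adjusted p = 0.014). Fads1, a desaturase of polyunsaturated fatty acids, was at 144, 406 and 187 in telogen and 771, 586 and 535 in anagen, also without overlap. Its log2 fold change was 1.49 (SE 0.37, limma adjusted p = 0.027). Acly and Acaca, the enzymes that supply Fasn with acetyl-CoA and malonyl-CoA, had log2 fold changes of -0.38 and 0.08 with adjusted p of 0.320 and 0.824 (limma), both with overlap.

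Among the elongases, Elovl5 was higher without overlap, at 1156, 1568 and 1365 in telogen and 1785, 1761 and 1843 in anagen. The difference was small (log2 fold change 0.41, SE 0.19, limma adjusted p = 0.198). Elovl1, Elovl4, Elovl6 and Elovl7, and the carboxylase Acacb, overlapped between groups and had log2 fold changes from -1.06 for Acacb to 0.38 for Elovl1. Elovl3 and Fads2 failed the filter on low values. Elovl3, an elongase known from sebaceous glands, was at 39.5, 11.1 and 0 in telogen and 4.74, 6.24 and 1.05 in anagen. Fads2, which acts in series with Fads1, was at 3.85, 0 and 0 in telogen and 7.12, 4.46 and 12.6 in anagen, so it was low in both groups.

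The calls differed in stability. Hmgcs1 and Scd2 were called in 6 of 6 fits that each left out 1 library, whereas Idi1, Cyp51 and Fasn were called in 4, Fdft1 in 3, Fads1 in 2 and Sc5d in 1. Without anagen replicate 1, or without anagen replicate 2, only Hmgcs1 and Scd2 were called, and without anagen replicate 3 the number was 5. Without an intensity trend in the variance, limma called Hmgcs1 and Scd2 alone.

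Other genes of lipid handling were counted from lists made for comparison. Among genes of sterol uptake, transport, export and SREBP processing, limma called Stard4, a sterol carrier (log2 fold change 1.17, adjusted p = 0.0055), and Vldlr, a lipoprotein receptor (1.46, adjusted p = 0.033), higher in anagen, and none of the 19 testable was lower, at an unadjusted p under 0.05 or after adjustment. Of 20 testable genes of fatty acid supply, activation and storage and of 12 genes of fatty acid oxidation, limma called none, and an unadjusted p under 0.05 in the higher direction was seen for 1 gene in each list and in the lower direction also for 1 in each. The median log2 fold changes of the 3 lists were 0.39, 0.25 and -0.11.

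Markers of other cell states moved with the same contrast. All 10 proliferation genes were called higher in anagen, and their sum was 955 to 1189 normalized counts in telogen and 22317 to 35535 in anagen. The 8 markers of inner root sheath and hair shaft summed to 56.05 to 157.7 in telogen and 405 to 1453 in anagen, and 4 of the 5 testable were called higher. Their mean on the scale log2(normalized count + 1) was only 1.54 to 2.35 in telogen. At such levels a marker may have passed the filter only through its anagen libraries, and its call would then be no support for a difference. The 14 markers of sebocytes, the lipid-secreting cells of the sebaceous gland, overlapped in sum (967.5 to 1581 in telogen and 965.5 to 1400 in anagen), Mc5r was at 0 in all 6 libraries and Awat2 was called lower in anagen. Suprabasal markers overlapped (12341 to 20342 and 10209 to 18367), with Flg called higher, as did adipocyte markers (31.88 to 171.4 and 11.44 to 66.04), of which Cfd and Lep were at 0 throughout. Immune markers overlapped (102.1 to 113.4 and 83.56 to 117.3) and none was called. Of the 10 HFSC markers, limma called Itga6 higher and Cd34 lower in anagen. Itga6, Krt14 and Krt5 were higher without overlap (30%, against 18.1% of all genes tested). Cd34, Lgr5 and Nfatc1 were lower without overlap (30%, against 15.2%). Fibroblast markers overlapped in sum (354 to 797 and 606 to 700.3), but 2 of the 5 testable, Col1a1 and Dcn, were called higher in anagen, and Dcn passed the filter only through its anagen libraries. The melanocyte sum was lower in anagen (2882 to 3285 and 1409.9 to 1488) through its most abundant gene, Mitf, which was called lower, while Dct was called higher and 4 of the 5 testable had a log2 fold change above 0.

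A mean over the genes of a list on the scale log2(normalized count + 1) gives abundant genes less weight than a sum. By that measure fibroblast markers were higher in anagen without overlap (3.47 to 3.65 in telogen and 4.57 to 5.39 in anagen), and sebocyte markers were lower without overlap (3.96 to 4.50 and 3.17 to 3.83). Melanocyte markers overlapped (3.66 to 4.22 and 4.20 to 5.19). The part of the cells and states that these lists mark in the lipid gene results was not tested.

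The second question was whether the same genes differ after Eed deletion in HFSCs at P70. In the libraries labelled Eed iKO, all 36 genes were testable and none passed an adjusted p under 0.05 by limma without a replicate block, nor by edgeR on the recovered reads, while 0.0267% of 15008 genes passed by limma (0.02% higher and 0.00666% lower) and 0.0333% by edgeR. At an unadjusted p under 0.05, 8 genes were higher (22.2%, against 8.38% of all genes) and none lower (6.33% of all genes). DESeq2 on the recovered reads called 3, Cyp51, Hmgcs1 and Fads2 (adjusted p = 0.0070, 0.015 and 0.035), among the 4.2% of genes it called. Fads2 was testable only through its Eed iKO libraries, the group in which it is high, so its place in these counts is no support for a difference. The median log2 fold change was 0.43 over the sterol enzymes, 0.21 over the regulators and -0.02 over the fatty acid enzymes, beside 0.00 over all genes tested. Of the 17 sterol enzymes, 15 had a log2 fold change above 0 (88.2%, against 49.9% of all genes), and the exceptions were Lss and Nsdhl at -0.25 and -0.58.

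**Figure D2:**
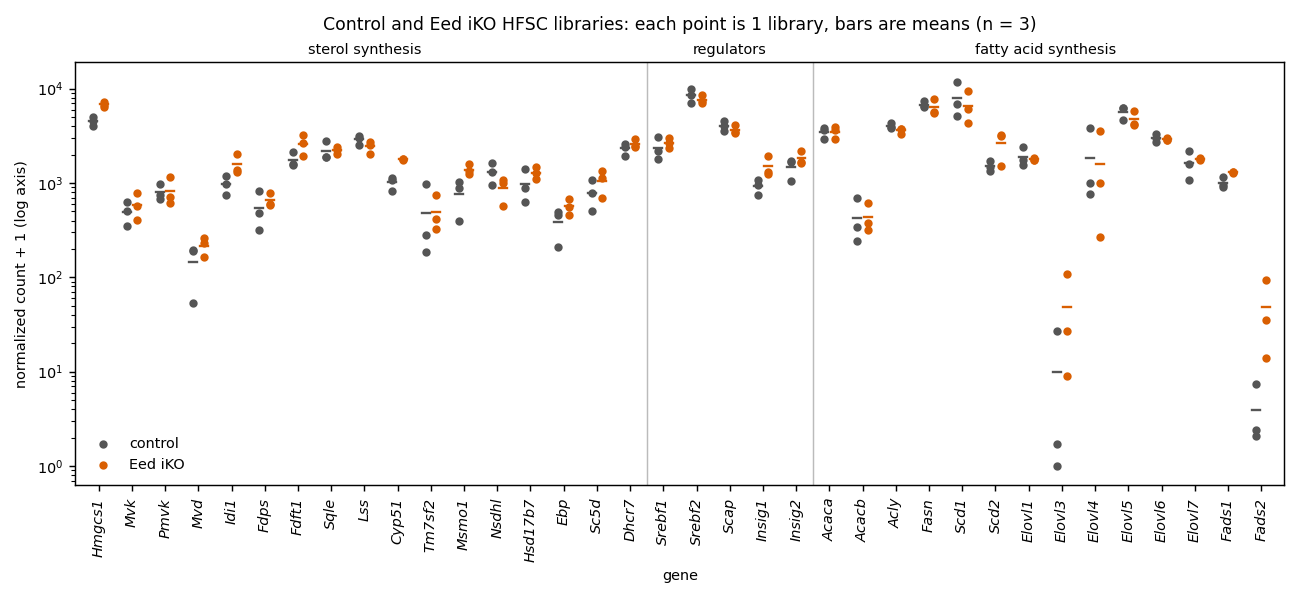
Normalized count + 1 on a log axis for each of the 36 genes in the P70 libraries, with 1 point per library and a bar at the mean of 3 libraries, control in grey and Eed iKO in orange. Hmgcs1, Idi1, Cyp51, Msmo1, Insig1, Fads1 and Fads2 had every Eed iKO library above every control library, and none of them passed an adjusted p under 0.05 by limma.

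Among sterol enzymes, 4 had all Eed iKO libraries above all controls. Hmgcs1 was at 4011, 5026 and 4534 in controls and 6703, 7214 and 6452 in Eed iKO, a clear gap between groups (log2 fold change 0.59, SE 0.14, limma adjusted p = 0.113). Cyp51 was at 829.8, 1138 and 1084 in controls and 1801, 1787 and 1731 in Eed iKO, where the libraries were almost level (log2 fold change 0.81, SE 0.19, limma adjusted p = 0.107). Idi1 was at 1175, 743 and 971 in controls and 1303, 2038 and 1385 in Eed iKO, the highest value being that of replicate 2 (log2 fold change 0.71, SE 0.24, limma adjusted p = 0.212). Msmo1, a methylsterol oxidase that acts after Cyp51, was at 395.5, 1020.4 and 888 in controls and 1247, 1580.3 and 1324 in Eed iKO. Control replicate 1 was low in that gene (log2 fold change 0.95, SE 0.32, limma adjusted p = 0.210).

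Fdft1, named after its values were seen, was at 1606, 1549 and 2109 in controls and 2639, 3222 and 1924 in Eed iKO. Here Eed iKO replicate 3 fell within the controls (log2 fold change 0.55, SE 0.21, limma adjusted p = 0.274), and Ctsb, with which it shares sequence, changed by -0.06 on the log2 scale (limma adjusted p = 0.889). The remaining 12 sterol enzymes overlapped between groups and had log2 fold changes from -0.58 for Nsdhl to 0.76 for Mvd, whose lowest control library was at 51.99 and highest Eed iKO library at 257.6.

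Of the regulators, Insig1 was at 741, 954 and 1063 in controls and 1242, 1936 and 1314 in Eed iKO. All Eed iKO libraries were higher (log2 fold change 0.69, SE 0.23, limma adjusted p = 0.208). The other 4 regulators overlapped between groups. Srebf1 was at 1795, 2186 and 3084 in controls and 2672, 2339 and 2981 in Eed iKO, and Srebf2 at 6971, 8593 and 10002 in controls and 7365, 8498 and 7118 in Eed iKO. Scap was at 3567, 3975 and 4561 in controls and 3386, 3502 and 4098 in Eed iKO, and Insig2 at 1046, 1697 and 1667 in controls and 2204, 1655 and 1632 in Eed iKO, where only replicate 1 exceeded all controls. In the order named, their log2 fold changes were 0.21, -0.14, -0.14 and 0.34, with limma adjusted p from 0.519 to 0.728.

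Fads2 was at 1.39, 1.08 and 6.35 in controls and 93.5, 34.5 and 12.9 in Eed iKO. Every Eed iKO library was higher, though they spread widely, and the recovered reads numbered 2, 1 and 7 in controls and 87, 26 and 13 in Eed iKO. It passed the filter on low values only through the Eed iKO libraries, so a gene like it had to differ in order to be tested. With that limit, it was the only one of the 36 past the thresholds of the methods for this comparison, a log2 fold change over 1.5 with p under 0.05, which 0.826% of genes passed upwards and 0.926% downwards (log2 fold change 3.44, SE 1.03, limma unadjusted p = 0.0070 and adjusted p = 0.166 across all genes). Fads1 was at 903, 962 and 1165 in controls and 1288, 1293 and 1306 in Eed iKO, without overlap (log2 fold change 0.37, SE 0.19, limma adjusted p = 0.386). Acly was the only one of them lower without overlap (10% of all genes tested were, and 10.2% were higher without overlap, against 7 of these 36, or 19.4%). It was at 3780.4, 3941 and 4291 in controls and 3754, 3766 and 3326 in Eed iKO, a narrow gap (log2 fold change -0.15, SE 0.14, limma adjusted p = 0.663).

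In Scd2, Elovl4 and Elovl3, named after their values were seen, replicate 3 stood apart within at least 1 group. Scd2 was at 1486, 1345 and 1711 in controls and 3174, 3232 and 1519 in Eed iKO, so Eed iKO replicate 3 lay within the controls (log2 fold change 0.73, SE 0.27, limma adjusted p = 0.251). Without Eed iKO replicate 3 the log2 fold change was 1.09 with a limma adjusted p of 0.023, and without replicate 3 of both groups, an alternative added after seeing the data, it was 1.18 with 0.022. The 10 proliferation genes summed to 2081, 5518 and 1867 in controls and 13033, 12815 and 1515 in Eed iKO, which is high in the same 2 Eed iKO libraries as Scd2, and control replicate 2 lay between. All 10 had a log2 fold change above 0 (49.9% of all genes did), with a median of 1.21, and limma called none. Only Cdk1 was higher without overlap, and it passed the thresholds of the methods and was called by DESeq2. In tissue sections at P70, the paper reports no early activation of Eed iKO HFSCs by Ki67 staining and follicles still in telogen. The part of the proliferation genes in the Scd2 values was not tested.

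Elovl4, which makes very long chain fatty acids of the skin barrier, was at 997, 760.4 and 3790.1 in controls and 990.3, 264 and 3523 in Eed iKO. Replicate 3 of both groups was high (log2 fold change -0.55, SE 0.81, limma adjusted p = 0.801). Elovl3 was at 0.694, 0 and 26.3 in controls and 25.8, 7.97 and 109 in Eed iKO, again highest in replicate 3 of each group (log2 fold change 3.05, SE 1.40, limma adjusted p = 0.346). Scd1 was at 6864, 5133 and 11864 in controls and 6029, 4369 and 9419.7 in Eed iKO, and Tm7sf2 at 184, 283 and 971 in controls and 321.5, 414 and 751 in Eed iKO. Fa2h, a fatty acid hydroxylase in the list of sebocyte markers, also named after its values were seen, was at 384, 232 and 3058 in controls. In Eed iKO, Fa2h was at 266, 104 and 2293, the same replicates being high. The 14 sebocyte markers as a whole summed to 7266, 5640 and 10229 in controls and 9565, 5753 and 9190 in Eed iKO. Replicate 3 was thus highest in controls, but replicate 1 was highest in Eed iKO. The part of these cells was not tested. The remaining fatty acid genes, Acaca, Acacb, Fasn, Elovl1, Elovl5, Elovl6 and Elovl7, had log2 fold changes from -0.28 for Elovl5 to 0.22 for Elovl7.

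**Figure D3:**
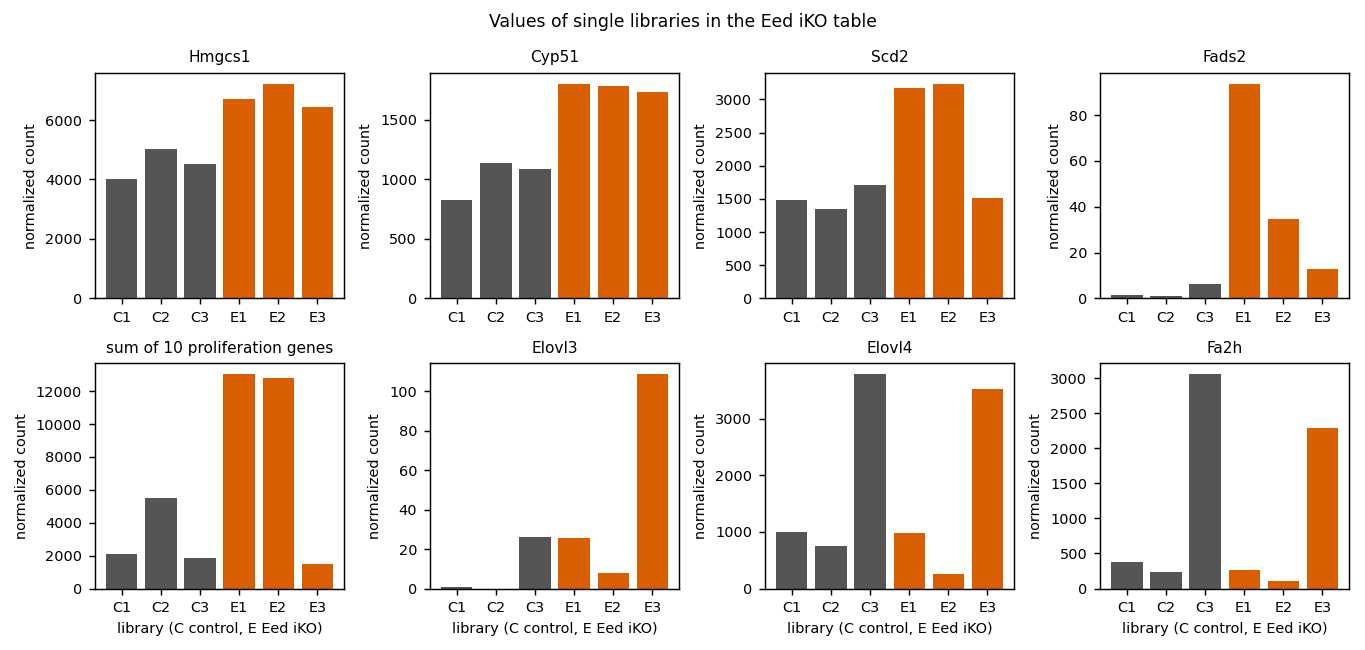
Normalized count (linear axes from 0) in each of the 6 P70 libraries, C1 to C3 control in grey and E1 to E3 Eed iKO in orange, for 6 genes of lipid synthesis, Fa2h and the sum of 10 proliferation genes. Hmgcs1 and Cyp51 were higher in all Eed iKO libraries, Scd2 and the proliferation sum were high in E1 and E2 and not in E3, and Elovl4 and Fa2h were high in C3 and E3.

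Most other marker sums at P70 overlapped between groups. Hair follicle stem cell markers summed to 1341215 to 1568115 in controls and 1475297 to 1717135 in Eed iKO, suprabasal markers to 22754 to 62138 and 22844 to 87206, fibroblast markers to 1834 to 3407 and 1339 to 2031, and melanocyte markers to 7820 to 9123 and 7928 to 8835. Inner root sheath and hair shaft markers summed to 457 to 1042 and 580.3 to 845.1, and immune markers to 148.4 to 352.7 and 209.6 to 572. Past the thresholds of the methods, Krt27 was higher (1 of 7 testable sheath and shaft markers, of which 3 were above 0) and Flg lower (1 of 8 suprabasal markers). Of the 10 stem cell markers, Itga6, Krt14, Krt15 and Lhx2 were higher without overlap (40%, against 10.2% of all genes). Lgr5 and Nfatc1 were lower without overlap (20%, against 10%). Limma called none of the 10 and DESeq2 called Krt14. The sum of adipocyte markers, 8 of 10 analysed here, was lower in Eed iKO without overlap (618.2 to 958.6 and 409.3 to 560.2), but their mean log2 level overlapped (2.43 to 4.46 and 3.26 to 3.84), none of the 3 testable was called, and Plin4 had a log2 fold change above 0 (0.21).

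Other lists differed in mean log2 level where their sums did not. Immune markers were higher in Eed iKO without overlap (2.06 to 2.88 in controls and 3.69 to 4.59 in Eed iKO), as were melanocyte markers (4.57 to 5.14 and 5.85 to 6.10), while fibroblast markers were lower (5.35 to 6.09 and 5.04 to 5.31). No gene of these 3 lists was called by limma. Cd207, a marker of Langerhans cells, was at 0 in all controls and at 18.3, 13.3 and 23.7 in Eed iKO, and DESeq2 called it. Tyrp1, an enzyme of melanin synthesis, was at 0, 6.5 and 0 in controls and 17.2, 25.2 and 16.8 in Eed iKO. Both passed the thresholds of the methods, and both were testable only through the Eed iKO libraries. Both also enter the means above, as do markers that failed the filter, since 4 of 8 immune and 5 of 7 melanocyte markers were testable. The immune and melanocyte means thus rest in part on values near 0. A log2 fold change above 0 was found for 3 of the 4 testable immune markers and 3 of the 5 testable melanocyte markers. The part of these cells in the lipid gene results was not tested.

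None of the 20 testable genes of sterol uptake and SREBP processing, 22 of fatty acid supply and 12 of fatty acid oxidation passed an adjusted p under 0.05 by limma or edgeR. DESeq2 called Acsl3 and Pnpla2 in the second list and none in the third. Named after its values were seen, Acsl3, which activates long chain fatty acids, was at 4513, 3790.2 and 4251 in controls and 5873, 7266 and 7296 in Eed iKO, without overlap (log2 fold change 0.70, SE 0.15, limma adjusted p = 0.102). At an unadjusted p under 0.05, 1 gene was higher in each of the fatty acid lists (4.55% of supply and 8.33% of oxidation, against 8.38% of all genes). In the lower direction, 2 genes of fatty acid supply (9.09%, against 6.33% of all genes) and none of oxidation were seen.

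**Figure D4:**
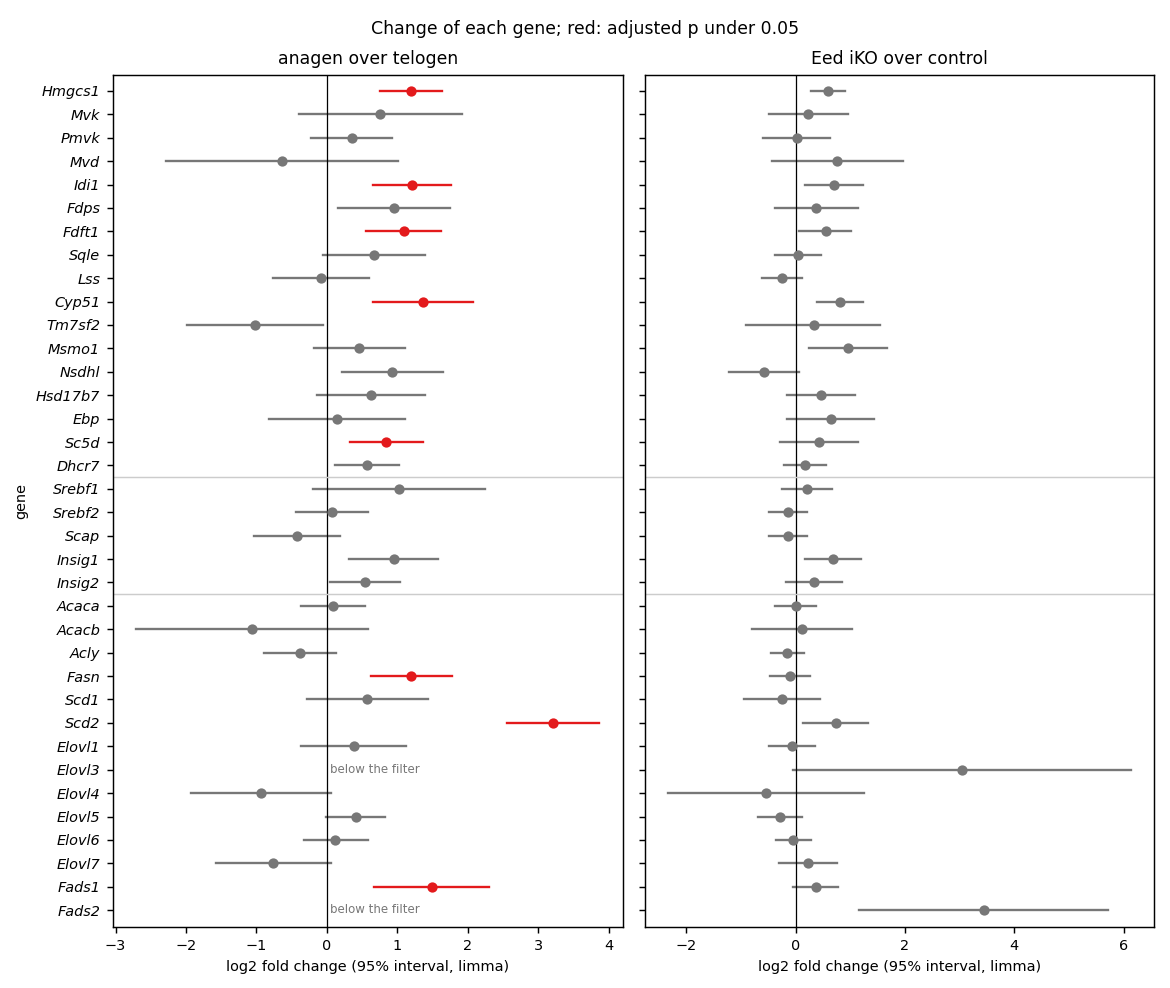
Log2 fold change of each gene with its 95% interval from limma, anagen over telogen on the left and Eed iKO over control on the right, with adjusted p under 0.05 in red. On the left 8 intervals are red, led by Scd2 at 3.21, and on the right none is, with the widest intervals for Elovl3, Fads2 and Elovl4.

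The comparisons share no libraries. Of the 34 genes tested in both, 18 had log2 fold changes above 0 in both and 4 below 0 in both. Most were above 0 in each comparison taken alone (26 of 34 in anagen and 24 of 36 in Eed iKO). The share over all genes was not computed, so these counts show no link between the comparisons. Hmgcs1, Idi1, Cyp51, Insig1 and Fads1, which is 5 of 34, were higher without overlap in both anagen and Eed iKO, as were 2.87% of the 13362 genes tested in both. In each comparison alone, the share higher without overlap was already above that of all genes. It was 41.2% against 18.1% in anagen and 19.4% against 10.2% in Eed iKO. The count of 5 therefore shows no link between the comparisons either. For Hmgcs1 the log2 fold changes were 1.19 (95% interval 0.75 to 1.63) in anagen and 0.59 (0.28 to 0.90) in Eed iKO, and for Scd2 they were 3.21 (2.56 to 3.87) and 0.73 (0.13 to 1.33). Fasn was at 1.20 (0.63 to 1.77) and -0.10 (-0.46 to 0.26). The differences between comparisons were not tested.

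Levels per kb of the longest coding transcript were led by different genes. In telogen the highest were Elovl5 (490 ± 74.1, SD, n = 3) and Hmgcs1 (413 ± 50.1), whose ranges overlapped. In anagen the order was Hmgcs1 (949 ± 172), Scd2 (707 ± 63.4) and Elovl5 (646 ± 15.3). Hmgcs1 was above Scd2 in every anagen library, while the ranges of Scd2 and Elovl5 overlapped. In P70 controls Elovl5 (2054 ± 331), Srebf2 (1679 ± 299), Scd1 (1646 ± 723) and Hmgcs1 (1306 ± 147) led, with the ranges of neighbours in that order overlapping, and in Eed iKO Hmgcs1 (1960 ± 112) and Elovl5 (1693 ± 342) had the highest means. Their ranges overlapped in Eed iKO, where Elovl5 was above Hmgcs1 in replicate 3, and SDs are over 3 libraries. Fads2 and Elovl3 were lowest at P70, at 0.933 ± 0.938 and 4.78 ± 7.97 in controls, and Acacb, Elovl3 and Fads2 were lowest in both hair cycle groups.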

How the data were processed

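Libraries were made with Ovation RNA-seq V2, for which no strand setting is stated, from sorted hair follicle stem cells, 3 per group in 4 groups. Per the labels and the methods, the authors quantified reads with kallisto 0.42.5 on Gencode vM20 transcripts (mm10), kept protein-coding genes and ran DESeq2 (given as 3.11). The deposited signal is gene counts divided by DESeq2 size factors, called normalized counts here. The deposited fold changes, p-values and adjusted p-values of the authors' own comparisons were not used, and columns of other samples were not present.

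From these values, log2(normalized count + 1) was fitted in limma 3.58.1 (R 4.3.3) with an intensity trend, each table on its own, after edgeR's filterByExpr with a count minimum of 10. The filter kept 15008 genes of the Eed table and 13457 of the hair cycle table, and p-values were adjusted over all of them by Benjamini-Hochberg. A fold change on this scale understates the change of low genes. In the table of Eed libraries, 100% of values were whole multiples of a step within 0.02 reads, and edgeR 4.0.16 and DESeq2 1.42.0 were run on those reads as alternatives. In the hair cycle table, by contrast, 3.49% to 6.04% were whole, so depth is unknown and no count test was run.

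Groups came from the labels. The regulators were given with the value of each library in both comparisons, as were genes past adjusted p under 0.05 or the thresholds of the methods and then those with the largest absolute log2 fold change among genes whose groups did not overlap, up to 12 in all. Other genes given by library were named after their values were seen. A gene that falls within a comparison list was left out of the text. The members, lists and markers were chosen with earlier results of these data known. Promoter windows are from RefSeq and gene models, lengths and shared 31-base words from GENCODE vM21. The fit was tested on simulated counts where 200 genes were shifted by 2.5 on the log2 scale. Of these, 99% were recovered in the Eed design with 10 false calls of 15008 genes, and 100% in the hair cycle design with 7 of 13457. The log2 fold changes of the sterol enzymes in Eed iKO were smaller, from -0.58 to 0.95. Recovery of shifts of that size was not tested. Alternatives were other scaling, pseudocount, filter, variance trend, count tests, a replicate block and leaving out libraries.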

Additional observations from a re-analysis of the deposited data

How the results depend on the processing

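In the hair cycle comparison, 8 genes were called under TMM scaling, a pseudocount of 0.1 and no filter on low values, 7 with the replicate block (without Sc5d, adjusted p = 0.096) and 2, Hmgcs1 and Scd2, without the intensity trend. Leaving out 1 library gave 2 to 10 called genes, with 2 without anagen replicate 1 or 2, 5 without anagen replicate 3 and 10 without telogen replicate 1. The number past the thresholds of the methods was 1 in all leave-one-out fits and 2 with no filter, genes whose groups do not overlap numbered 15 to 23 (23 without telogen replicate 2), and the median log2 fold change ranged from 0.36 without telogen replicate 3 to 0.58. In the Eed iKO comparison, 0 genes were called under limma with TMM scaling, another pseudocount, no filter or no trend and by edgeR, 3 by DESeq2 and 2, Cyp51 and Hmgcs1, with the replicate block, under which 2.83% of all genes were called. Leaving out 1 library gave 0 to 1 called genes, the 1 being Scd2 without Eed iKO replicate 3. The number past the thresholds of the methods was 2 with no filter and with the replicate block, and 0 to 2 with 1 library left out (0 without Eed iKO replicate 1, 2 without Eed iKO replicate 2 or control replicate 3). Genes whose groups do not overlap numbered 9 to 19, with 14 without Eed iKO replicate 3 and 19 without control replicate 3, and the median ranged from 0.04 without control replicate 1 to 0.43 without control replicate 3. Without replicate 3 of both groups, chosen after seeing the data, the values were 1 called gene, 2 past the thresholds and 22 without overlap. Where fewer libraries are compared, groups fail to overlap more often by construction. Srebf2 changed sign, at 0.03 without replicate 3 of both P70 groups and at -0.10 without telogen replicate 1 (from -0.10 to 0.23 over the libraries left out). The causes were not tested. Same-numbered libraries correlated by 0.039 to 0.193 in their deviations from the group means in the Eed table and by -0.071 to -0.029 in the hair cycle table, so the numbers were not taken as pairs. Among the Eed libraries, 2 of 3 numbers had their own partner as best match and among the hair cycle libraries, 0 of 3. The 3 libraries per group and the unknown depth of the hair cycle table limit how small a difference can be seen, and genes near 0 such as Fads2 and Elovl3 rest on few reads.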
